A study of Mus musculus with 6 samples.

Results

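Nuclear genes whose symbols name subunits of the mitochondrial respiratory chain were taken from the deposited gene table by symbol: those starting with Nduf and a letter of a, b, c, s or v followed by a digit, Sdha to Sdhd, and those starting with Uqcr, Cox4 to Cox8 or Atp5, leaving out symbols that hold "-ps". The rule found 85 genes among 32801 rows: 40 of complex I, 4 of complex II, 8 of complex III, 16 of complex IV and 17 of complex V. Another 7 rows matched the pattern but hold "-ps" and were left out. RNA had been sequenced from thymic regulatory T cells (Treg), CD4+ T cells that restrain immune responses, of 3-week-old mice. NOD mice, which become diabetic through autoimmunity without any treatment, gave 3 libraries, and C57BL/6 (B6) mice gave another 3. Neither strain was treated, as far as the labels say. The sorted cells of both strains were Thy1.1+ and CD4+CD8−, and they were GFP−. No label states what GFP or Thy1.1 marks or which transgene carries it. Whether mice were pooled for a library is not stated either, so p-values measure the spread between libraries only.

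The respiratory chain sits in the inner mitochondrial membrane. Complex I takes electrons from NADH and complex II from succinate, coenzyme Q carries them to complex III and cytochrome c to complex IV, which reduces oxygen, and complex V uses the resulting proton gradient to make ATP. Most subunits are encoded in the nucleus, a small number in the mitochondrial genome, and Treg are known to draw on oxidative phosphorylation more than conventional effector T cells do.

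The sequences below belong to the 2 subunit genes called between strains, Ndufs5 and Atp5e, and to a subunit gene with an abundant near-identical copy, Atp5g1. Ndufs5 encodes a small accessory subunit of complex I and lies on the minus strand of chromosome 4 (GRCm38, chr4:123712710-123718202). BC002163 is annotated as a processed pseudogene on the plus strand of chr16:42955631-42955949, inside an intron of Zbtb20, and it matched 319 of the 321 coding bases of Ndufs5 at 99.4% identity. Coding bases 18 to 167 of Ndufs5, counted from 1 at the first base of the start codon, hold both differences from BC002163, T81C and A105G, which are shown in capitals with the base of the subunit gene written first in these names.
Ndufs5: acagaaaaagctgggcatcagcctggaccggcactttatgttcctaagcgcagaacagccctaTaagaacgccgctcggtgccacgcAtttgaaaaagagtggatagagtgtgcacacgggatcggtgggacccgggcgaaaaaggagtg
BC002163: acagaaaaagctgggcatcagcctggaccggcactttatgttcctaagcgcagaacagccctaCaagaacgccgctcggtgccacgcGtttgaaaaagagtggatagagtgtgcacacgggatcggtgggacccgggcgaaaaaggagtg

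Atp5g1 (chr11:96068852-96075670, minus strand) is a gene for the c subunit, which forms the rotating ring of complex V. Gm10039, a processed pseudogene between genes at chr11:100361716-100362126 on the minus strand, matched all 411 of its coding bases at 99.8% identity. Coding bases 262 to 411 hold the only difference, G385A, in capitals.
Atp5g1: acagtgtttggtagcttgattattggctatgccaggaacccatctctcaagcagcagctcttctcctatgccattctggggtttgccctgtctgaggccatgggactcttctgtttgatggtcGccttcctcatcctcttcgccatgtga
Gm10039: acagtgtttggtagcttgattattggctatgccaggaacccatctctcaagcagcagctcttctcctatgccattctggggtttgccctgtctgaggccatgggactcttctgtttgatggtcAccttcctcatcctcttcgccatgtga

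Atp5e encodes the epsilon subunit of the catalytic F1 head of complex V (chr2:174461072-174464105, minus strand). Its coding sequence of 159 bases is shown whole because 0 other annotated genes matched it at 85% identity or more, and no annotated gene overlaps it.
Atp5e: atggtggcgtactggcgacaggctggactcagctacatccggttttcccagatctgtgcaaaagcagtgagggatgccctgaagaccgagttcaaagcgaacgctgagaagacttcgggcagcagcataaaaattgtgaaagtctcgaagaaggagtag

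The values are normalized counts, which the authors obtained by scaling the reads per gene with a library's size factor and rounding the result. They summed to between 16097369 and 17625903 per library, and estimated depth ran from 15500000 reads (B6 library 20) to 21600000 (NOD library 18). Libraries carry the numbers of the deposited columns. Genes that reached 10 normalized counts in 3 or more libraries were tested with limma on log2(value + 1), and an adjusted p below 0.05 made a call. Mitochondrial ribosomal RNA stood at 280968 in NOD library 10 and 319658 in B6 library 12 against 975804 to 1510134 in the other libraries. Called subunit genes and called genes that serve the chain are therefore also given without these 2 libraries, and marker genes are not. Treg identity genes were high in every library: Foxp3, the defining transcription factor, stood at 1701 to 2446 and Ctla4, an inhibitory receptor, at 53515 to 70232. Of the 6 genes on that list Cd3e, a CD3 subunit that signals for the T cell receptor, was the one called, higher in NOD at 2118, 1598 and 2031 against 1088, 1051 and 1207 (log2 fold change 0.77, limma adjusted p = 0.0022). Among markers of other cells, the sums over 5 erythroid genes were 1 to 26, over 5 B cell genes 136 to 196, over 5 thymic epithelial genes 172 to 321 and over 6 myeloid genes 575 to 1009. In this myeloid sum Cst3 was the main term, at 705, 982 and 606 in NOD and 529, 522 and 585 in B6. The macrophage genes Lyz2 and Adgre1 were the other way round, at 3, 3 and 15 against 38, 13 and 33 for Lyz2 (log2 fold change -2.06, limma adjusted p = 0.068) and at 0, 0 and 2 against 9, 9 and 22 for Adgre1, which was not tested. The 6 genes of double-positive thymocytes summed to 238 to 320 in NOD and 250 to 304 in B6. Within them Cd8a was higher in NOD (124, 35 and 100 against 10, 17 and 18, limma adjusted p = 0.0075). Cd8b1, the partner chain of Cd8a, overlapped between strains (117, 135 and 134 against 105, 99 and 131, limma adjusted p = 0.65). Rag1 was lower in NOD (49, 55 and 67 against 155, 100 and 111, limma adjusted p = 0.017). Dntt also lay lower but was not called (8, 11 and 17 against 34, 25 and 25, limma adjusted p = 0.095). Rag2 gave 0, 2 and 2 against 0, 9 and 2, and Ptcra stood at 0 or 1 throughout. The part of these marker differences in the results below was not tested. An annotated gene overlaps 38 of the subunit genes, on the opposite strand for 29, and reads of such pairs cannot be told apart where the strand setting is unknown.

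Of the 85 subunit genes, 79 passed the filter and were tested. Between the strains 0 of them were called higher in NOD and 2 were called lower, Ndufs5 and Atp5e, against 4.59% of all 16442 tested genes called higher and 5.3% called lower (9.89% in either direction). At an unadjusted p below 0.05 the counts were 11 of 79 subunit genes, against 20.3% of tested genes. The median log2 fold change of NOD against B6 was 0.08 for tested subunit genes and 0.01 for tested genes as a whole. Of the 79, 62 (78.5%) lay within 0.25 of 0 on the log2 scale, against 54.7% of tested genes, and 73 (92.4%) lay within 0.5, against 76.5%. The 95% intervals of 74 (93.7%) stayed inside a 2-fold difference in either direction and those of 55 (69.6%) inside 1.5-fold, against 64.1% and 38% of tested genes. Subunit genes also had more counts behind them: their median was 800 normalized counts against 189 for tested genes, 71 of 79 lay above the latter, and their intervals reached 0.31 to either side at the median against 0.45 on the log2 scale. In bulk RNA, fewer cells of a type and less RNA per cell cannot be told apart.

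**Figure D1:**
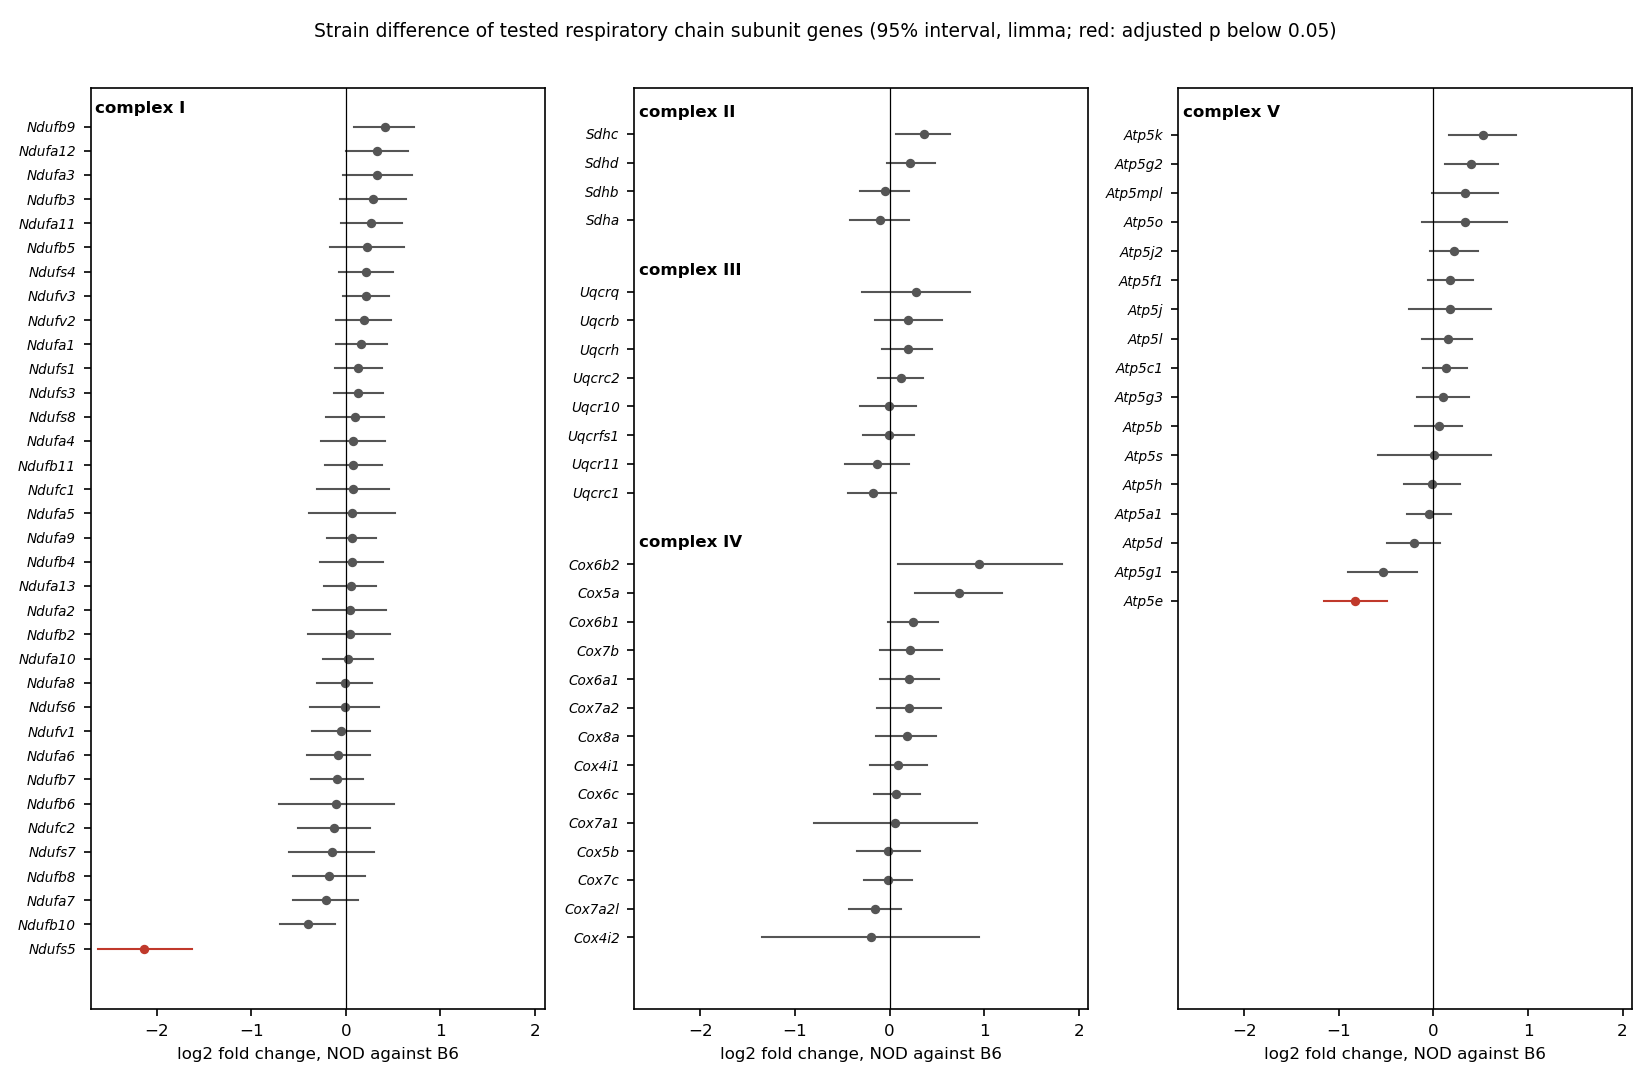
Log2 fold change of NOD against B6 (x axis) for 78 of the 79 tested subunit genes, a row per gene in panels by complex, with limma's 95% intervals as lines and the 2 genes called at an adjusted p below 0.05 in red. Most points sit close to 0, while Ndufs5 lies at -2.13 and Atp5e at -0.83.

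Positive fold changes made up 51 of 79 (64.6%), against 51.9% of tested genes, and the median over the 79 moved between 0.02 and 0.13 when each library was left out in turn. All NOD libraries lay above all B6 libraries for 12 subunit genes, where 12.1% of tested genes did so, and below them for 5, where 11.9% did. Summed over the 85 genes, normalized counts were 101165, 105304 and 95277 in NOD libraries 2, 10 and 18 and 89177, 95908 and 107807 in B6 libraries 4, 12 and 20. These sums overlap, with means of 100582 ± 5039 and 97631 ± 9434 (SD, n = 3 libraries).

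Complex I, the NADH dehydrogenase, had 36 of 40 genes tested, with 0 called higher and 1 lower and a median log2 fold change of 0.06. Summed levels were 23469 ± 1815 in NOD and 22762 ± 1602 in B6 (SD, n = 3). Core subunits carry the flavin and the iron-sulfur clusters that pass electrons on. Ndufv1, the subunit that binds NADH, gave 853, 1180 and 859 in NOD and 954, 954 and 1057 in B6. Its partner Ndufv2 gave 1066, 1095 and 899 against 808, 848 and 1035. Strains overlapped for both genes of this NADH-binding pair. Ndufs1, the largest subunit with several iron-sulfur clusters, gave 1580, 1388 and 1349 against 1300, 1220 and 1436, a log2 fold change of 0.13 ± 0.11 (SE). Ndufs3, Ndufs7 and Ndufs8, core subunits of the peripheral arm, had log2 fold changes of 0.13, -0.15 and 0.10, with 95% intervals of -0.13 to 0.39, -0.60 to 0.30 and -0.21 to 0.40.

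Accessory subunits of complex I, which surround the core and are needed for its assembly and stability, numbered 33 by this rule, and 29 were tested. Apart from Ndufs5 their log2 fold changes ran from -0.40 to 0.41, ends held by Ndufb10 and Ndufb9. Ndufb10 gave 452, 562 and 430 in NOD and 625, 641 and 631 in B6 (adjusted p = 0.095). Ndufb9 gave 341, 337 and 315 against 241, 232 and 277 (adjusted p = 0.12), and Gm49356 overlaps it on the same strand. Neither pair of groups overlapped and neither gene was called, but without NOD library 10 Ndufb10 was (log2 fold change -0.52, adjusted p = 0.021). Ndufa4 is grouped here by its symbol although the protein is now assigned to complex IV, and it gave 1702, 1462 and 1539 against 1190, 1467 and 1861. Its paralog Ndufa4l2, known as a hypoxia-induced gene, stood at 0 to 2 in the 6 libraries and was not tested. Ndufa11b, Ndufb4c and Ndufs6b were not tested either, with 0 to 7 normalized counts, and the annotation lists these 3 as processed pseudogenes.

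Ndufs5 gave 47, 46 and 38 normalized counts in NOD libraries and 161, 193 and 232 in B6 libraries. The strains were far apart, at -2.13 ± 0.22 (log2 fold change ± SE, with an adjusted p of 8.5e-05 in limma), and without NOD library 10 and B6 library 12 it was -2.17 (adjusted p = 0.0045). Counts assigned to its near-identical copy BC002163 ran the other way, at 153, 190 and 158 in NOD and 14, 5 and 1 in B6. The copy's log2 fold change was 4.89 ± 0.59 (adjusted p = 0.00022). Added together, the pair gave 200, 236 and 196 in NOD and 175, 198 and 233 in B6. The sums overlapped, with a log2 fold change of 0.07 and a 95% interval of -0.32 to 0.45 (adjusted p = 0.9), so the subunit gene was lower in NOD only when its row was counted apart from the copy. Within the 319 aligned coding bases the pair differs in the reference only by the T81C and A105G printed above, and the sequence outside them was not compared. The reads were aligned to mm10, a B6 genome, per the submitters' processing notes, and which locus the NOD reads came from was not tested.

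A search of the 81 subunit genes with an annotated coding sequence found 20 with a near-identical copy elsewhere (at least 95% identity over at least 50% of the coding bases) and 36 such copies with a row in the table. Most copies took few counts: 25 had a mean under 10 normalized counts. All NOD libraries lay above all B6 libraries for 4 of the 36 and below for 2. These were all among the 11 copies with a mean of 10 or more. Of tested genes 12.1% and 11.9% did so, but those had passed the filter on low values. A share of all 36 copies therefore cannot be set against these percentages. Gm10039, the copy of Atp5g1, gave 360, 246 and 278 in NOD and 3, 9 and 11 in B6 (log2 fold change 5.22 ± 0.40, adjusted p = 7.2e-06). Gm15920, a processed pseudogene in an intron of Rabgef1 (chr5:130188395-130188796, plus strand), matched Ndufa12, an accessory subunit of complex I, over 402 coding bases at 99.5% identity with the differences A147G and T426C. It gave 63, 36 and 43 against 11, 2 and 3 (adjusted p = 0.0027). These copies, like BC002163, were high in NOD and near 0 in B6.

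For Ndufa12 itself the counts were 448, 380 and 329 in NOD and 296, 309 and 307 in B6, a log2 fold change of 0.33 that became 0.47 with the copy added (adjusted p = 0.079). The reverse direction was seen at 4930481A15Rik on chromosome 19, an antisense transcript that overlaps a processed pseudogene and an exon of Drap1. It matches 155 of the 195 coding bases of Uqcr10, a small subunit of complex III, on its opposite strand at 96.1% identity. It spans chr19:5406740-5422847, so its counts need not come from the matching bases. It gave 7, 10 and 13 in NOD and 118, 101 and 114 in B6. Adding it moved the log2 fold change of Uqcr10 from -0.01 to -0.19 (adjusted p = 0.5), and no strain difference was called either way. With every subunit gene summed with its copies, Atp5e was the only subunit gene called, where 9.85% of 16431 rows were.

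**Figure D2:**
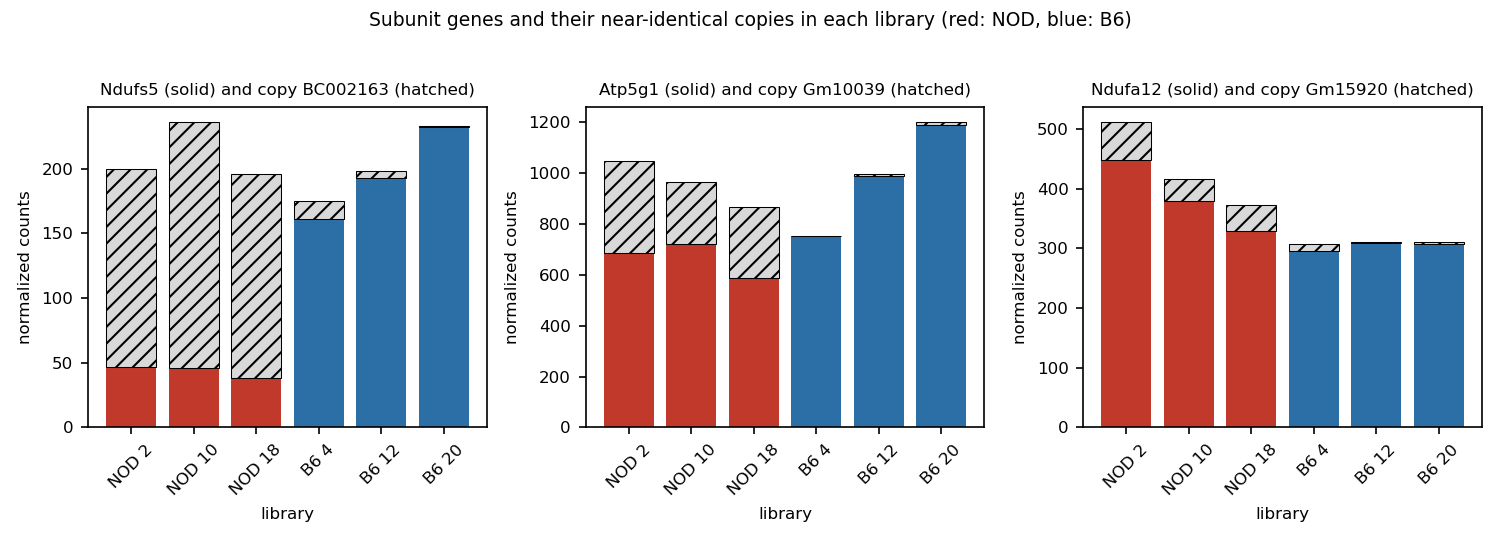
Normalized counts (y axis, from 0) in each library (x axis) for 3 subunit genes, with the gene as the solid part of each bar and its near-identical copy as the hatched part. For Ndufs5 and Atp5g1 the solid parts are lower in NOD while the full bars overlap between strains, as in the Ndufs5 sums of 196 to 236 in NOD and 175 to 233 in B6.

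Complex II, succinate dehydrogenase, is shared with the citric acid cycle, and its 4 genes were all tested with 0 called and a median log2 fold change of 0.09. Sdha, the flavoprotein that oxidises succinate, gave 3262, 2601 and 3155 in NOD and 3190, 2682 and 3870 in B6. Sdhb, which holds the iron-sulfur clusters, gave 1196, 1337 and 1090 against 1153, 1224 and 1368. Strains overlapped for this catalytic pair. The membrane anchors were less even: Sdhc gave 844, 774 and 777 against 563, 594 and 723, and Sdhd gave 1211, 1246 and 1073 against 918, 1053 and 1050. All NOD libraries lay above all B6 libraries for both anchors, at log2 fold changes of 0.36 and 0.22 (limma adjusted p = 0.13 and 0.32). Sdhc was called when B6 library 20 was left out (0.46, adjusted p = 0.044), and in the authors' deposited table its adjusted p was 0.047. Summed levels of complex II were 6189 ± 289 in NOD and 6129 ± 775 in B6 (SD, n = 3).

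Complex III, which passes electrons from coenzyme Q to cytochrome c, had 8 of 8 genes tested, 0 called, 7 within 0.25 of 0 and a median log2 fold change of 0.05. Its log2 fold changes ran from -0.18 for Uqcrc1 to 0.28 for Uqcrq, and for no gene were the strains fully apart. The core proteins Uqcrc1 and Uqcrc2 gave 1648, 2154 and 1806 against 2114, 2115 and 2098, and 1932, 1860 and 1749 against 1573, 1710 and 1839. Uqcrfs1, the Rieske iron-sulfur protein, gave 1256, 1480 and 1181 against 1180, 1368 and 1388, a log2 fold change of -0.01 with an interval of -0.28 to 0.26. Cyc1, the cytochrome c1 gene that the symbol rule does not take, stood at 838 ± 23.1 in NOD and 866 ± 103 in B6 (SD, n = 3). Summed over the 8 genes, complex III stood at 10902 ± 707 and 10468 ± 816.

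Complex IV, cytochrome c oxidase, had 14 of 16 genes tested and 0 called, with a median log2 fold change of 0.13 and sums of 18687 ± 1322 in NOD and 17816 ± 2067 in B6. Cox5a, a subunit around the catalytic core, came closest to the threshold: it gave 158, 169 and 145 in NOD and 101, 112 and 74 in B6. The strains did not overlap, at a log2 fold change of 0.73 ± 0.21 (SE), and the adjusted p was 0.053 in limma and 0.026 in the authors' deposited table. Quantile normalization brought it past the threshold (adjusted p = 0.046). Gm26631, a transcript on the opposite strand, overlaps Cox5a, and its part in this value was not tested. Cox4i1, the largest subunit encoded in the nucleus, gave 2443, 2769 and 2349 against 1964, 2398 and 2793.

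Several complex IV subunits come in isoforms with their own tissue range, and these Treg expressed mainly the ubiquitous ones. Per kilobase of exon, Cox4i2, the lung isoform, stood at 25 normalized counts and Cox4i1 at 1582 over the 6 libraries. On the same scale Cox7a1, the heart and muscle isoform, stood at 66.7 and the ubiquitous Cox7a2 at 1459. Cox8b, of heart and muscle, stood at 20.8 per kilobase (1 to 18 normalized counts, too low to be tested) and Cox8a at 1803. Cox6b2, known from testis, stood at 33.2 per kilobase and Cox6b1 at 2794. In normalized counts Cox6b2 gave 42, 41 and 60 in NOD and 21, 15 and 42 in B6, and the strains met at 42. Its log2 fold change of 0.95 was the highest of any tested subunit gene and was not called (adjusted p = 0.19), although leaving out B6 library 20 took it to 1.35 (adjusted p = 0.04). Cox6c2, listed as a processed pseudogene, had 0 to 2 normalized counts. The symbol rule found no row named Cox6a2 or Cox8c. Cox7a2l, which links complexes into supercomplexes and is known to encode a shortened protein in B6 mice, gave 3269, 3682 and 3203 in NOD and 3281, 3684 and 4415 in B6. These ranges overlapped, with a log2 fold change of -0.16 (interval -0.43 to 0.12).

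Complex V, the ATP synthase, had 17 of 17 genes tested, with 0 called higher, 1 lower and a median log2 fold change of 0.13. The catalytic F1 subunits Atp5a1 (alpha) and Atp5b (beta) were the most abundant of the complex per kilobase of exon, at 3393 and 2319, and also per kilobase of a single transcript, where Atp5b led with 5128 against 4304. They ran from 9820 to 11416 and from 8715 to 10857 normalized counts over the 6 libraries. Their log2 fold changes were -0.05 and 0.06, with intervals of -0.28 to 0.19 and -0.19 to 0.30. Of the other F1 subunits, Atp5c1 (gamma) had 0.13 and Atp5d (delta) -0.21, neither called. Summed levels were 41335 ± 1282 in NOD and 40456 ± 4295 in B6 (SD, n = 3).

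Atp5e, the epsilon subunit of the same F1 head, gave 1022, 786 and 1021 in NOD and 1379, 1717 and 1939 in B6. Every NOD library lay below every B6 library, and the log2 fold change was -0.83 ± 0.15 (SE; limma adjusted p = 0.0042), or 0.0087 as adjusted p in the authors' deposited table. It stayed between -0.96 and -0.68 over 15 alternative settings, but the call was lost without the trend in limma's variance (adjusted p = 0.056) and without NOD library 10 and B6 library 12 (-0.68, adjusted p = 0.055). Unlike for Ndufs5, no annotated copy was found whose counts could be added to Atp5e. The search covered its 159 coding bases in the reference, and the rest of the transcript and NOD sequence were not compared.

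The c subunit is encoded by Atp5g1, Atp5g2 and Atp5g3, whose mature proteins are the same and whose import sequences differ. Atp5g1 gave 687, 721 and 587 in NOD and 751, 988 and 1189 in B6, Atp5g2 gave 1689, 1546 and 1608 against 1039, 1232 and 1434, and Atp5g3 gave 2266, 2274 and 2157 against 1990, 1817 and 2476. Strains did not overlap for Atp5g1 (NOD below) or Atp5g2 (NOD above), and overlapped for Atp5g3. Neither of the separated genes was called, at log2 fold changes of -0.53 (limma adjusted p = 0.072) and 0.40 (adjusted p = 0.083). Atp5g1 was called without B6 library 4 (-0.71, adjusted p = 0.023), Atp5g2 without B6 library 20 (0.51, adjusted p = 0.028), and the authors' deposited table gives Atp5g1 an adjusted p of 0.018. With Gm10039 added, Atp5g1 moved to -0.01 (interval -0.37 to 0.34).

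Atp5g1 made up 13.5% to 15.9% of the normalized counts of the 3 c-subunit genes, with no correction for length, in NOD libraries and 19.9% to 24.5% in B6 libraries. With Gm10039 counted as Atp5g1 these shares were 18.7% to 20.9% and 19.9% to 24.6%, and they overlapped. Over the 3 genes the sum was 4512 ± 147 in NOD and 4305 ± 699 in B6 (SD, n = 3), and with Gm10039 it was 4806 ± 187 and 4313 ± 703. Atp5k, the e subunit of the membrane part, gave 1334, 1143 and 1330 in NOD and 768, 780 and 1153 in B6. The groups overlap at their edge, and its log2 fold change of 0.52 was not called (adjusted p = 0.069) unless NOD library 10 (0.59, adjusted p = 0.048) or B6 library 20 (0.71, adjusted p = 0.0062) was left out. Atp5s was the least abundant gene with an Atp5 symbol per kilobase of exon (24.5), at 40 to 61 normalized counts.

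Levels of different genes were compared per kilobase of exon, as normalized counts divided by the length of each gene's exons in GENCODE. The medians over tested genes were 324 for complex I, 653 for complex II, 695 for complex III, 1136 for complex IV and 833 for complex V. Atp5a1 (3393), Cox6b1 (2794) and Uqcrh (2762), the hinge protein of complex III, were highest, and Ndufb2 (21.1), an accessory subunit of complex I, was lowest among tested genes. In complex II the order was Sdhd (887), Sdha (758), Sdhb (548) and Sdhc (219). These orders depend on the length used. Per kilobase of the transcript with the longest coding sequence, Uqcrh (6246), Atp5b (5128) and Atp5a1 (4304) were highest and Cox4i2 (26.8) and Ndufb2 (27.1) lowest among tested genes, and the order in complex II was Sdha (1078), Sdhb (1075), Sdhd (887) and Sdhc (225). The order of genes was nearly the same in both strains (Spearman's rho 0.983 over 79 genes, a description, since genes share libraries and lengths). Long annotated exons lower a gene's value on this scale: Ndufb2 has 5628 bases of exon in all.

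**Figure D3:**
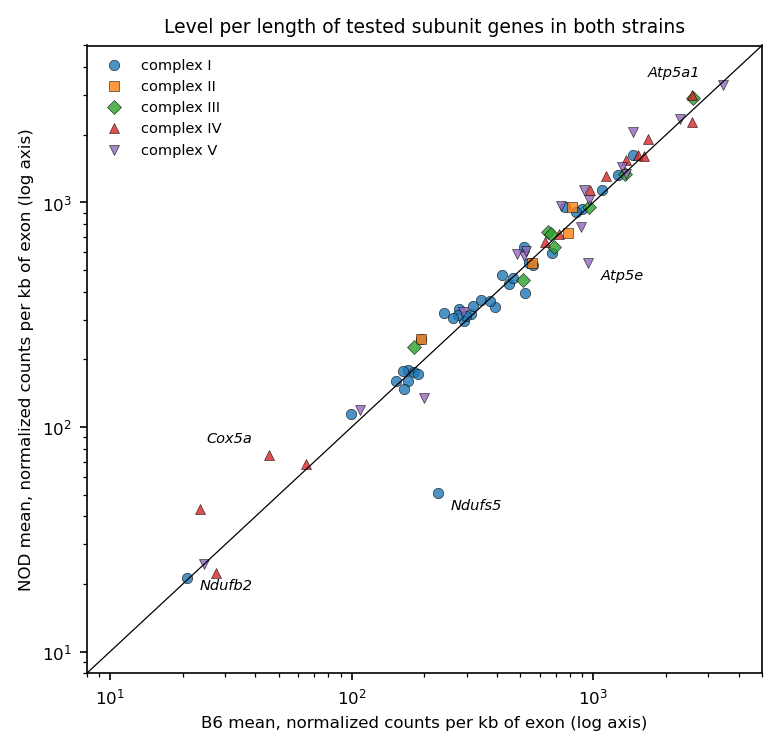
Mean normalized counts per kilobase of exon in B6 (x axis) and NOD (y axis), both log axes, for the 79 tested subunit genes, with symbols by complex and the line of equal levels. Points follow the line from Ndufb2 to Atp5a1, and Ndufs5 lies farthest below it (50.8 in NOD, 227 in B6).

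Within a strain the subunit genes tended to stand high or low together. B6 library 20 was the highest of its strain for 57 of 79 genes (72.2%), against 40.3% of tested genes, and B6 library 4 the lowest for 55 (69.6%), against 29.8%. NOD library 10 was the highest for 44 (55.7%, against 40.9%) and NOD library 18 the lowest for 53 (67.1%, against 33.4%). Median deviations from each gene's mean over 6 libraries were -0.14 in B6 library 4, -0.04 in B6 library 12, 0.10 in B6 library 20, 0.06 in NOD library 2, 0.13 in NOD library 10 and -0.05 in NOD library 18 on the log2 scale. Within each strain these medians lay farther apart than the median difference of 0.08 between strains. Ribosomal protein genes took 4.2% of normalized counts in B6 library 4, the lowest share, and 5.69% in both B6 library 20 and NOD library 10, the highest, and NOD library 18 had 4.91%. The part of these library features in the subunit values was not tested.

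**Figure D4:**
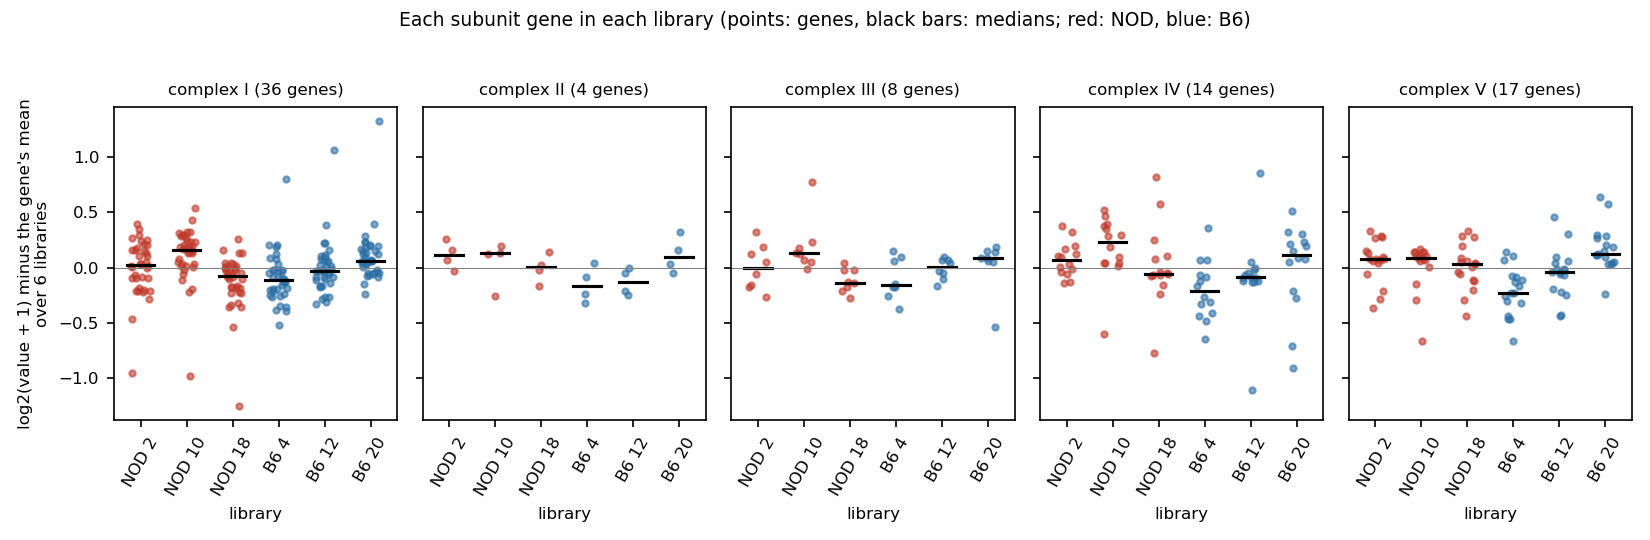
Log2(value + 1) of each tested subunit gene minus its mean over 6 libraries (y axis) by library (x axis), in a panel per complex, with points for genes and black bars for medians. In complex V the medians are -0.23 in B6 library 4 and 0.12 in B6 library 20, and NOD libraries lie between them, at 0.03 to 0.09.

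Genes that serve the chain without being taken by the symbol rule were counted from fixed lists. Among subunits encoded in the mitochondrial genome, 10 of 13 were tested, with 1 called higher and 0 lower in NOD. Of all tested genes 4.59% were called higher and 5.3% lower. That gene was mt-Co3, a core subunit of complex IV, at 366, 267 and 334 in NOD and 98, 94 and 100 in B6 (log2 fold change 1.71 ± 0.18, limma adjusted p = 7.7e-05). Without NOD library 10 and B6 library 12 mt-Co3 stayed called (1.81, limma adjusted p = 0.0014). The nuclear pseudogene Gm28437 on chromosome 1 matches 783 of its 784 bases at 100% identity, so reads of this pair cannot be told apart. The row of Gm28437 gave 143, 107 and 141 against 86, 67 and 123, and the pair was not summed. mt-Co1, the catalytic subunit, gave 84174, 66706 and 74172 against 91156, 82251 and 95858 and was not called (adjusted p = 0.35). The row of mt-Co3 thus held far fewer counts than that of mt-Co1. So did those of mt-Co2 (56 to 82) and mt-Atp6 (10 to 35), while mt-Nd1 stood at 7669 to 13335. The reason for these low rows was not tested. mt-Nd4l and mt-Atp8 stood at 0 or 1 and were not tested. mt-Nd3 was not tested either, at 6, 2 and 2 in NOD and 9, 9 and 13 in B6, so its few counts lay lower in NOD.

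Assembly factors, which build the complexes, gave 0 calls for complex I (17 tested), complex II (4), complex III (5) and complex IV (20), with medians of 0.09, 0.16, -0.10 and 0.02. Over all 16442 tested genes 9.89% were called in either direction, and lists this short can hold 0 or 1 calls at that share. Of 6 tested genes for assembly or inhibition of complex V, Atpaf2, a chaperone of the F1 alpha subunit, was lower in NOD: 184, 162 and 202 against 280, 272 and 285 (log2 fold change -0.61, adjusted p = 0.028). This call was lost in 7 of 15 alternative settings, namely with each of the 6 libraries left out in turn and without NOD library 10 and B6 library 12, with adjusted p from 0.024 to 0.1 over the 15. Atpaf2 overlaps Gid4 on the opposite strand. Of 12 genes of coenzyme Q synthesis, 1 was called, Coq8a, an atypical kinase of the pathway, at 1550, 2447 and 1720 in NOD and 3128, 3599 and 2967 in B6. Its log2 fold change was -0.79 (limma adjusted p = 0.0081), and the call was lost without B6 library 12 (adjusted p = 0.051) and without the variance trend (0.087). Without NOD library 10 and B6 library 12 together, Coq8a stayed called (-0.90, limma adjusted p = 0.0033). Cdc42bpa overlaps Coq8a on the opposite strand.

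Among 14 tested transcription regulators of respiratory genes, Hif1a, the oxygen-responsive factor, was the only gene called, where 9.89% of all tested genes were. It was higher in NOD, at 15897, 15724 and 19111 against 12410, 10868 and 12839 (log2 fold change 0.49, limma adjusted p = 0.023). Its adjusted p was 0.06 in the authors' deposited table. In 6 of 15 alternative settings the call was lost, among them those without NOD library 18 (0.40, adjusted p = 0.11), B6 library 4 (0.51, adjusted p = 0.062) or B6 library 12 (0.42, adjusted p = 0.11). Without both NOD library 10 and B6 library 12 it was lost too (0.47, limma adjusted p = 0.075). Gm15283, an antisense gene, and Gm49321, a protein-coding gene on the same strand, overlap Hif1a. Nrf1, an activator of many subunit genes, had a mean of 1556 ± 56.3 in NOD libraries and 1527 ± 73.3 in B6 libraries, while Gabpa, the ETS factor that shares this role, had 1549 ± 212 and 1475 ± 220 (SD, n = 3). The coactivator Ppargc1a stood at 0 to 2 in every library. Cycs, cytochrome c itself, stood at 1538 ± 22.5 and 1434 ± 168.

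Promoter windows of RefSeq (GRCm38.p6; 300 bases around the start site) matched 65 of the 85 genes. Searched on both strands, GCGCATGCG (bound by NRF1) was found in 8 of them (12.3%, against 1.95% of 27025 genes), CCGGAAG (ETS family) in 16 (24.6%, against 9.93%), AAGATGGCG (YY1) in 7 (10.8%, against 1.64%) and TCAAGGTCA (ESRRA) in 2 (3.08%, against 0.466%). NRF1 letters were found at Atp5g2, Atp5k, Atp5l, Cox6a1, Ndufa8, Ndufa11, Uqcr11 and Uqcrc1, none of them called between strains. The window of Ndufs5 held none of these motifs, and that of Atp5e held the ETS letters. The 246 bases upstream of Atp5e on the minus strand (chr2:174464106-174464351) are printed 5′ to 3′ with that match, read from the other strand, in capitals. They are shown because Atp5e is the subunit gene called lower for which no annotated copy of the coding sequence was found.
Atp5e promoter: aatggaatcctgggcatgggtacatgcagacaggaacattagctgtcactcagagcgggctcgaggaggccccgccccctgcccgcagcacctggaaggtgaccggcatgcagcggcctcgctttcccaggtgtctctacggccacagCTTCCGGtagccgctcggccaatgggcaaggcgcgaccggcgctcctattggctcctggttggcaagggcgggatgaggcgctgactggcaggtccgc

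Of the 85 genes, 81 had an adjusted p in the authors' deposited table, and 5 were below 0.05, against 9.75% of 21988 genes. Cox5a and Sdhc were the 2 higher in NOD, with log2 fold changes in that table of 0.71 and 0.35, and Ndufs5, Atp5e and Atp5g1 were the 3 lower in the authors' deposited table. In the limma fit Cox5a, Sdhc and Atp5g1 kept these signs without being called.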

How the data were processed

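RNA from sorted thymic Treg (3 NOD and 3 B6 samples) was sequenced after total RNA library preparation. Trimmomatic, STAR, DESeq2 and the mm10 build are named in the submitters' processing notes. For the read counter, strand setting, annotation and versions, the entry is: not given in the sources used here. The deposited table holds scores, which per the file headers are normalized counts: the authors scaled reads by each library's size factor and rounded them. It also holds the authors' log2 fold changes and p-values, credited where printed, and their mean and test statistic, which were not used. Columns carry numbers that are not the labels' replicate numbers, so no pairing of strains was used in the fit reported. No sample column was left unused (0).

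Log2(value + 1) was fitted by limma 3.58.1 in R 4.3.3, the files being read with data.table (version 1.17.8). The model held strain alone, with a variance trend. Genes needed 10 normalized counts in 3 libraries (in fewer where a library was left out). P-values are two-sided and were adjusted over 16442 genes by the Benjamini-Hochberg method. Depth was estimated from gaps left by rounding, and of low values 59.8% to 100% fitted a single read count. Whole reads were not recovered, so no count test was run. On simulated data of 16131 genes, 49.3% of 1.5-fold changes, 98.5% of 2-fold and 100% of 4-fold changes were called, with 4 false calls.

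Coding sequences and coordinates come from GENCODE M21 (GRCm38), and copies were found with blastn 2.17.0+. Alternatives covered the pseudocount, filter, scaling, variance trend, each library left out, copies added, the removal of 2 libraries, and column sets as a block. The last 3 alternatives were added after the data were seen. Members, lists and tests were chosen with earlier results of these data known. Named genes were the called members, the extremes of each complex, core subunits, isoform sets and called genes of the other lists. Ndufb9, Ndufb10, Ndufa12, Uqcr10, Atp5k, the copies and genes given only as background for a list were chosen after their values were seen. Counting error was not given separately, since raw counts were not at hand. A gene that the rule takes is not reported here by name.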

Additional observations from a re-analysis of the deposited data

How the results depend on the processing

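The median log2 fold change of the subunit genes stayed at 0.02 to 0.13 under each alternative that was run. The count called higher in NOD was 1 under quantile normalization (Cox5a) and 0 to 5 with each library left out in turn, with 1 (Atp5k) without NOD library 10 and 5 (Atp5g2, Atp5k, Atp5mpl, Cox6b2 and Sdhc) without B6 library 20. The count called lower was 1 without the variance trend and without NOD library 10 and B6 library 12 (Ndufs5 in both), 1 with copies added (Atp5e), and 2 to 3 with each library left out, the third being Ndufb10 or Atp5g1. Ndufs5 reversed with its copy added, to 0.07. Among the other genes of the chain, the count called higher was 1 under quantile normalization, without the trend and without NOD library 10 and B6 library 12 (mt-Co3 each time), and 1 to 3 with each library left out. The count called lower was 1 without the trend (Atpaf2) and 0 to 2 with each library left out, with 0 without B6 library 12. In every fit that left out a library, a strain had only 2. Apart from the fits with copies added and with column sets as a block, the share of all tested genes called is not given for these alternatives. A change in these counts therefore cannot be told apart from a change in calls over all genes.

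The column numbers form sets of neighbours (2 with 4, 10 with 12, 18 with 20), which the labels do not tie to animals or days. Deviations from the strain means over 16442 genes correlated at 0.01, 0.18 and 0.13 within these sets, and NOD library 2 and B6 library 4 each correlated more with a library of another set (0.10 and 0.03). Mitochondrial ribosomal RNA took the same order over these sets in both strains. NOD libraries 2, 10 and 18 had 1004094, 280968 and 1510134, and B6 libraries 4, 12 and 20 had 975804, 319658 and 1228792. The share of ribosomal protein genes did not keep this order, at 5.27%, 5.69% and 4.91% against 4.2%, 5.3% and 5.69%. With these sets as a replicate block, chosen after seeing the data, 12.3% of genes were called, the subunit genes had 3 called higher (Cox5a, Atp5k and Atp5g2) and 3 lower (Ndufs5, Atp5e and Atp5g1), with a median of 0.08, and the other genes of the chain had 3 higher (Coa5 added) and 2 lower. Sequencing depth is an estimate, genes with fewer counts have wider intervals, and 49.3% of simulated 1.5-fold changes were called. A gene that was not called is therefore not shown to be equal between strains, and its interval gives what 3 libraries per strain allow.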

Other observations

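Ndufb1-ps, which the symbol rule leaves out for its suffix and the annotation lists as a transcript from a bidirectional promoter, was picked after its values were seen. It gave 1229, 1246 and 1218 normalized counts in NOD and 863, 950 and 1017 in B6, and all NOD libraries lay above all B6 libraries. Its log2 fold change was 0.39 ± 0.11 (SE; limma adjusted p = 0.046), and its adjusted p in the authors' deposited table was 0.17. It overlaps an exon of Cpsf2 on the opposite strand.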
